A study of Mus musculus with 22 samples.

Results

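Coding sequence 5' end regions are the features of the deposited count table that the annotation places inside the protein-coding part (CDS) of a gene, each with a chromosome, a position and a strand. Every annotation row of the class Coding CDS was taken, which gave 45771 rows, and 44472 of these have read counts among the 112460 features in all. At least 1 read fell in 36684 of them. They belong to 10308 genes with a single symbol, while 75 features carry several symbols. Beside each gene's CDS features stand its promoter features, the name used here for the 5' UTR and upstream features of the same symbol, and 8397 of the 10308 genes have one.

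The reads come from the M1 cortex, the primary motor area, of 6 wild-type (WT) and 5 BERKO mice (replicates 2 to 6), all males on C57BL/6 aged 16 to 20 weeks and untreated as far as the labels say. BERKO is the label's name for mice that lack estrogen receptor beta, the nuclear receptor encoded by Esr2. A left and a right needle biopsy of each mouse gave 22 libraries of 10 ng RNA by STRT, which copies RNA by reverse transcription and marks the 5' end of each copied molecule through template switching. The series names 6 BERKO mice at the start and an outlier that the submitters removed.

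As background, most transcripts of a gene begin at its promoter, so a method that marks 5' ends places most reads upstream of the coding sequence or in the 5' UTR. Reads that begin inside the coding sequence mark RNA whose captured end lies within the body of the message. Such ends are known from promoters inside genes, from cleaved and recapped RNA, from broken RNA and from template switching before the true end is reached. Neurons make many long messages for cytoskeletal proteins, channels and ion pumps, whose coding sequence leaves much room for such ends. The counts do not tell these kinds of end apart.

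Endogenous reads per biopsy ranged from 248354 to 2011941, and per mouse they were 2193736 ± 569477 in WT (SD, n = 6) against 1397811 ± 249254 in BERKO (SD, n = 5; exact permutation p = 0.0152, two-sided). The left biopsy of BERKO replicate 5 has 1 sequencing lane and the other biopsies have 3. The right and left biopsies of WT replicate 1 and the left biopsy of WT replicate 2 stood apart in an earlier analysis of these libraries. Well codes in the column names put the genotypes, and within them the sides, in different plate rows, so plate row cannot be told apart from genotype or side. Esr2 itself had 13 reads in all: 3 in an upstream feature of WT replicate 1, and 6 and 4 in its CDS feature of BERKO replicates 3 and 5. The labels do not say which part of Esr2 was altered, so these reads check no label. Of the cell type markers, those of excitatory cortical neurons were all detected, with a summed level of 1192 to 1926 CPM in WT and 1693 to 2452 CPM in BERKO (CPM, counts scaled to the size of the library with TMM factors).

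CDS features were many and thinly filled. A gene had a median of 3, and the highest numbers lay in genes of giant proteins: 69 in Dst, a linker of the cytoskeleton, 55 in Mycbp2, a ubiquitin ligase of axons, 50 in Dync1h1, the heavy chain of cytoplasmic dynein, and 50 in Sptan1, a spectrin of the membrane skeleton. The median CDS feature had 13 reads over all mice, and the 20 richest features held 8.89% of the 1943066 CDS reads. The distance from a CDS feature to the nearest promoter feature of its gene had a median of 17408 bases, with the 10th and 90th percentiles at 2058 and 103447 bases. Only 874 CDS features lay within 500 bases of a promoter feature (called near here), 36393 lay farther (far), and 7205 had several symbols or belonged to genes with no promoter feature on their strand. The near features held 3.93% of CDS reads, the far features 81.1% and those without a promoter feature 15.0%.

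In BERKO, a larger share of the reads began inside coding sequences. Of a mouse's endogenous reads, CDS features held 11.1% ± 0.859 in the BERKO group (SD, n = 5) against 8.89% ± 1.09 in the WT group (SD, n = 6). The 6 WT mice ranged from 7.23% through a median of 8.81% to 10.5%. BERKO replicates 2 to 6 had 10.2%, 11.8%, 10.9%, 12.2% and 10.4%. The groups overlapped only through WT replicate 4, whose 10.5% lay above BERKO replicates 2 and 6. The difference of 2.22 percentage points had a two-sided exact permutation p of 0.0087 over 462 splits of the mice (Benjamini-Hochberg adjusted 0.0225 over 13 shares and totals), where the smallest p that the design allows is 0.00216. With those 3 WT libraries left out the difference was 2.01 points (exact permutation p = 0.0317). As a share of CDS plus promoter reads the WT value was 10.4% ± 1.32 (SD, n = 6), and BERKO lay 2.65 points higher (n = 5; exact permutation p = 0.0087, adjusted 0.0225).

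Far and near CDS features were compared between the genotypes separately, and far was not tested against near. Far CDS features took 7.12% ± 1.01 of reads in WT and 9.18% ± 0.781 in BERKO (SD, n = 6 and 5; exact permutation p = 0.0087, adjusted 0.0225). WT replicate 4, with 8.63%, lay above BERKO replicates 2 and 6, with 8.37% and 8.52%, and the other WT mice lay below all BERKO mice. Near CDS features took 0.374% ± 0.0126 in WT and 0.386% ± 0.0199 in BERKO (SD; exact permutation p = 0.264, n = 6 and 5). 3' UTR features, which lie even later in the message, went from 5.08% ± 0.715 to 6.59% ± 0.441 (SD, n = 6 and 5; exact permutation p = 0.0065, adjusted 0.0225). 5' UTR features held 63.4% ± 1.48 of reads in WT and 61.3% ± 1.16 in BERKO (SD, n = 6 and 5; exact permutation p = 0.0303, adjusted 0.0563, which misses the threshold of 0.05).

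**Figure D1:**
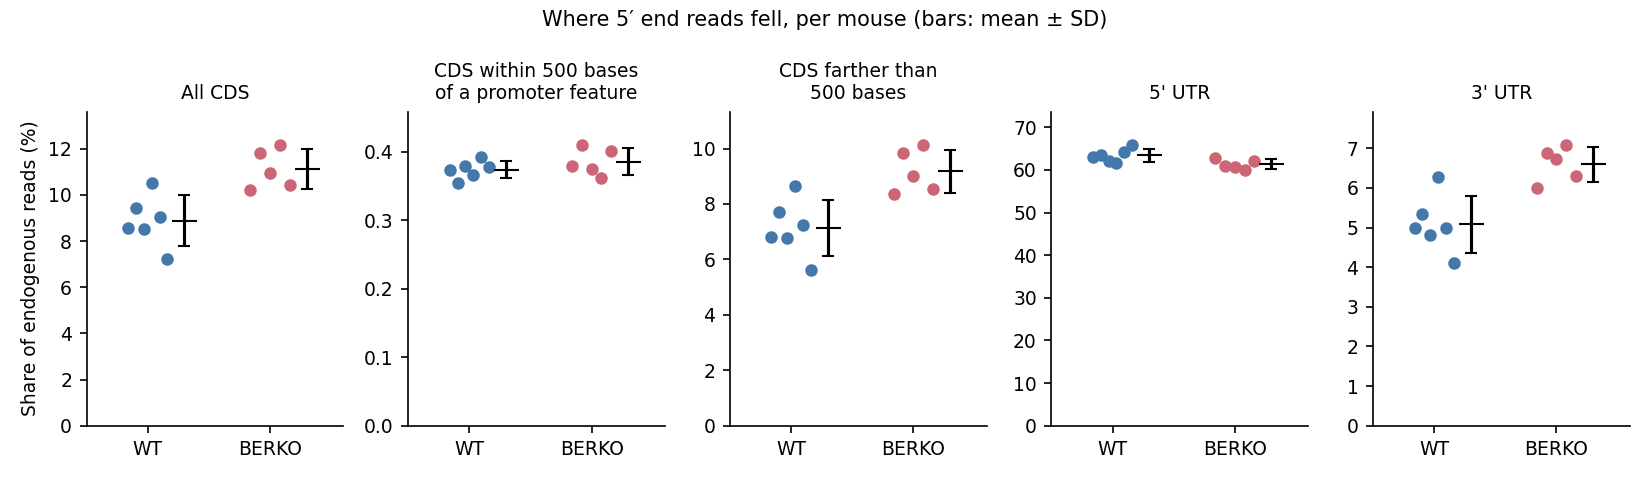
Share of endogenous reads (%, y axis from 0) in 5 kinds of feature, with 1 point per mouse for WT (blue, 6 mice) and BERKO (red, 5 mice) and black marks for the mean ± SD. The BERKO mean is higher for all CDS (11.1% against 8.89%), far CDS and 3' UTR features, where WT replicate 4 lies inside the BERKO range, and the near CDS means are 0.374% in WT and 0.386% in BERKO.

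Split by distance, the BERKO mean stood 1.03 times the WT mean in the features within 500 bases. It was 1.29 times the WT mean in the bin that ends at 2000 bases, 1.28 times in the bin to 10000, 1.29 times in the bin to 50000 and 1.30 times beyond 50000 bases. Past the first 500 bases the ratio thus stayed between 1.28 and 1.30 at every distance. These bins were chosen after the data were seen and carry no test of their own.

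**Figure D2:**
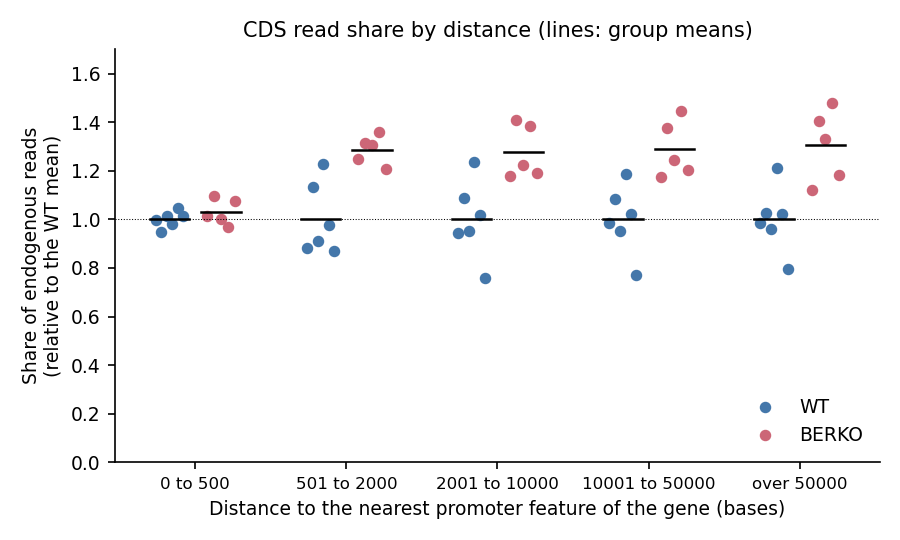
CDS read share of each mouse divided by the WT mean (y axis) in 5 bins of distance to the nearest promoter feature in bases (x axis), WT in blue and BERKO in red, with group means as black lines. The bin up to 500 bases has a BERKO mean of 1.03, and the other bins lie from 1.28 to 1.30.

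Reads that begin inside the ERCC spike-in sequences give the same measure in RNA that was added to each well. The BERKO group had 0.858% ± 0.569 of its spike-in reads there (SD, n = 5) and the WT group 0.936% ± 0.174 (SD, n = 6), with an exact permutation p of 0.758. Spike-in reads were few, 4076 ± 663 per WT mouse and 2200 ± 237 per BERKO mouse (SD; exact permutation p = 0.00216, the smallest the design can give, n = 6 and 5). BERKO replicate 2 had 0.0413% and BERKO replicate 5 had 1.504%, a spread that covers the whole WT range. Read depth also moved with genotype: BERKO had fewer reads. Within WT the deepest mice, replicates 3 and 1 with 2899377 and 2764298 reads, had CDS shares of 8.50% and 8.58%. Replicates 5, 4 and 2, with 2292660, 1952915 and 1835079 reads, had higher shares of 9.05%, 10.5% and 9.43%, and the shallowest, replicate 6 with 1418084 reads, had the lowest share of 7.23%. Within BERKO the shallowest mouse, replicate 5 with 1010647 reads, had the highest share of 12.2%. The part of depth in the difference was not tested.

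Markers of other cell types moved beside it. The 4 microglial markers were all detected and summed to 202 to 309 CPM in WT and 338 to 432 CPM in BERKO, ranges that do not overlap. The 3 endothelial markers, all detected, had 83.2 to 182 CPM in WT and 158 to 250 CPM in BERKO. The 4 oligodendrocyte markers spread from 2071 to 10345 CPM in WT and from 4848 to 12229 CPM in BERKO. Interneuron markers, 5 of 5 detected, lay at 935 to 1216 CPM in WT and 775 to 1066 CPM in BERKO, and astrocyte markers, 4 of 4, at 845 to 1299 and 985 to 1498 CPM. Pericyte markers (3 of 3) summed to 203 to 348 and 320 to 568.3 CPM, meningeal markers (3 of 3) to 135 to 276 and 130 to 378 CPM, and choroid plexus markers (3 of 3) to 18.2 to 493.5 and 27.4 to 246 CPM. Of the striatal markers 3 of 4 were detected, at 14.9 to 62.9 and 22.7 to 68.5 CPM. No feature carried the single symbol Drd1a. Of the blood markers 1 of 3 was detected, at 6.66 to 57.3 and 10.9 to 56.0 CPM, and no feature carried Hba-a1 or Hbb-b1 as its single symbol. In whole tissue, fewer cells of a type and less RNA per cell cannot be told apart. The part of cell makeup in the CDS share was not tested.

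Each feature was then tested on its own with edgeR across 13128 features of all classes, and 2996 CDS features in 1576 genes passed the filter on low counts while 41476 did not. The tested CDS features had a median log2 difference (BERKO minus WT) of 0.38, and 2254 of them (75.2%) were positive. Over all tested features the median was -0.0028, with 49.7% positive. Far CDS features had a median of 0.40 (2580 tested), near ones 0.15 (66 tested), and those of genes without a promoter feature 0.20 (350 tested). The median of 3' UTR features was 0.39, whereas 5' UTR features had -0.16 and upstream features -0.18. The level of the zero depends on the scaling: with TMM computed on the CDS features alone their median became -0.02 with 48.6% positive, and with spike-in scaling it became 0.63 with 86.7% positive. The contrast between classes is a relative one for that reason.

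**Figure D3:**
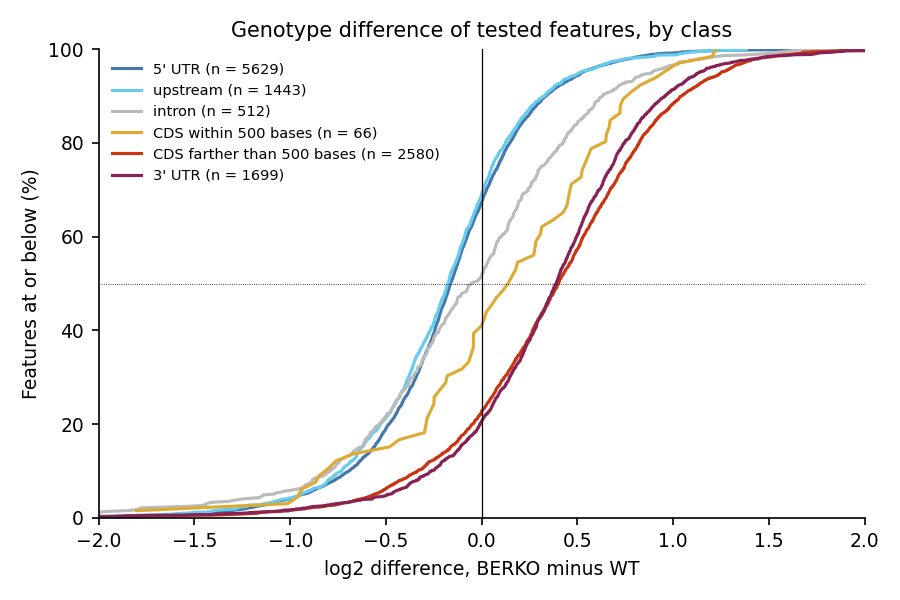
Cumulative share of tested features (y axis, %) at or below each log2 difference, BERKO minus WT (x axis, cropped at -2 and 2), for 6 feature classes. The curves of far CDS and 3' UTR features cross 50% near 0.40 and 0.39, the 5' UTR and upstream curves cross at -0.16 and -0.18, and near CDS features lie between at 0.15.

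Single CDS features rarely passed the test. With edgeR's quasi-likelihood test and Benjamini-Hochberg adjustment over all 13128 features, 1 CDS feature was higher in BERKO and 0 were lower, where 0.0305% of all features tested were called higher and 0.0838% lower (0.114% in either direction). At an unadjusted p under 0.05, 330 CDS features were higher and 27 lower, where 5.63% and 5.93% of all features tested were. This balance turned with the scaling: with TMM on the CDS features alone 64 were higher and 113 lower, and in a fit of the CDS features alone 71 and 123. In 53 CDS features (1.77%) every BERKO mouse lay above every WT mouse and in 2 (0.0668%) below, where all features tested gave 0.922% and 0.906%. DESeq2, which gave an adjusted p to only 1090 CDS features, called 31 higher and 1 lower, and limma-voom 3 and 0. Leaving out WT replicate 4, the WT mouse with the highest CDS share, brought the edgeR calls to 12 higher.

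The feature that passed lies in Rnf214, which encodes a RING finger protein, at position 45708206 on the minus strand of chromosome 9 (mm9), 6259 bases from the nearest promoter feature. It ranged from 5.70 through a median of 9.51 to 13.1 CPM in WT. BERKO replicates 2 to 6 had 23.3, 30.4, 41.4, 42.1 and 39.1 CPM. All BERKO mice lay above all WT mice, and the log2 difference was 1.87 ± 0.34 (SE; edgeR adjusted p = 0.0217, higher in 5 of 5 mice). The promoter sum of Rnf214 differed by -0.14 ± 0.24 (SE), so CDS reads made up 22.4% of the gene's CDS plus promoter reads in WT and 46.6% in BERKO. Its call was lost without any 1 of WT replicates 3 and 6 and BERKO replicates 3, 4, 5 and 6, with adjusted p from 0.0516 to 0.112, while the log2 difference stayed between 1.77 and 1.99 in every leave-out.

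The next features in order of p, none of which passed, included several genes of neuronal signalling and ion transport. Lingo1, a leucine-rich repeat protein of neurons that restrains axon growth, has its coding sequence in 1 exon and kept 95.4% of its CDS reads in the feature at position 56467884 of chromosome 9 (minus strand). That feature had 51.8, 89.1 and 146 CPM in WT (lowest, median, highest) and 163, 215, 202, 227 and 176 CPM in BERKO replicates 2 to 6, with no overlap (log2 difference 1.03 ± 0.21 SE, edgeR adjusted p = 0.058). The promoter sum of Lingo1 differed by 0.77 ± 0.31 (SE). Atp2b1, a calcium pump of the plasma membrane, had 6.66 to 31.0 CPM in WT and 44.2 to 65.2 CPM in BERKO in its first CDS feature (1.45 ± 0.32). The first CDS feature of Atp2b2, a related pump, had 2.75 to 16.3 and 17.3 to 41.2 CPM (1.72 ± 0.44). Adcy9, an adenylyl cyclase, had 31.7 to 55.1 CPM in WT and 66.9 to 105 CPM in BERKO (1.04 ± 0.22).

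Among cytoskeletal genes, a feature of Sptbn1, which encodes a beta spectrin, had 25.2 to 56.9 CPM in WT. BERKO replicate 2 reached 42.8 CPM, inside the WT range, and the other BERKO mice 79.4 to 153 CPM (1.31 ± 0.28). The Actb feature, in the gene of beta actin, had 43.2 to 78.1 and 93.0 to 124 CPM (0.86 ± 0.21). That of Nefm, a neurofilament subunit, had 8.24 to 56.8 and 55.1 to 94.6 CPM (1.41 ± 0.35). The promoter sum of Actb differed by 0.40 ± 0.18 (SE) and that of Nefm by -0.05 ± 0.32. Rtn4, which encodes the axon growth inhibitor Nogo, differed by 1.48 ± 0.37 and Ppp3ca, the catalytic subunit of calcineurin, by 0.87 ± 0.23. Pde4a, a cyclic AMP phosphodiesterase, differed by 1.11 ± 0.28, and Hspa8, a constitutive chaperone, by 0.75 ± 0.19. The others of this order were Ttc3 (1.40), Snrpn (0.54), Ddx24 (1.21), Ndufa10 (1.66), Serpine2 (2.00) and Cmip (1.01). Counts of the Serpine2 feature were low, with a mean of 16 reads per mouse. It had 0.933 to 7.45 CPM in WT and 10.9 to 26.0 CPM in BERKO, and passed the filter on neither side alone. Adjusted p of the 18 described ran from 0.058 to 0.18, and 17 of them were higher in BERKO.

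The exception was a feature of Ankrd12, an ankyrin repeat protein, at position 66336398 on the minus strand of chromosome 17. It had 12.9 to 33.0 CPM in WT and 3.89, 7.23, 1.56, 7.36 and 8.33 CPM in BERKO replicates 2 to 6, so that the groups did not overlap (log2 difference -2.08 ± 0.45 SE, edgeR adjusted p = 0.0771). The promoter sum of Ankrd12 differed by -0.036 ± 0.18. A stretch of 648 bases of its transcripts matches Gm9517 at 99.4% identity, so reads of the pair may be split uncertainly by the authors' counting.

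The CDS features with the highest levels mostly had differences near 0. The strongest 3 lay in Snrpn, an imprinted gene of a splicing particle protein, and Laptm4a, a lysosomal membrane protein. The Snrpn feature at position 67132341 of chromosome 7 (minus strand) had 1102, 1397 and 1999 CPM in WT (lowest, median, highest) and 2193, 2074, 2251, 2177 and 2012 CPM in BERKO replicates 2 to 6. All BERKO mice lay above WT there (0.54 ± 0.14 SE, edgeR adjusted p = 0.137). The promoter sum of Snrpn differed by 0.40 ± 0.18 (SE) and its CDS sum by 0.38 ± 0.14, so the rise is not particular to the CDS reads. A second Snrpn feature at position 67131741 had 697 ± 120 CPM in WT and 684 ± 97.2 in BERKO (SD, n = 6 and 5), a log2 difference of -0.03 ± 0.14. Features of the same gene can thus carry different values, although the difference between these features was not tested.

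Of the other rich features, 8 lay at the first CDS position of their gene, with few or no promoter reads beside them. Laptm4a had 880 ± 163 and 854 ± 175 CPM (SD, WT n = 6, BERKO n = 5) and Ndufa12, an accessory subunit of respiratory complex I, 619 ± 49.1 and 590 ± 32.0 CPM. Hypk, a partner of N-terminal acetylation, had 509 ± 77.7 and 422 ± 47.6 CPM, and Tpi1, the glycolytic triose phosphate isomerase, 473 ± 101 and 409 ± 49.7 CPM. Psmc3, a proteasome ATPase, had 446 ± 71.4 and 488 ± 64.1 CPM, Sept7, a septin, 299 ± 70.7 and 323 ± 50.8 CPM, and Spcs1, a signal peptidase subunit, 312 ± 31.5 and 300 ± 45.3 CPM. Bcas1, a gene of myelinating oligodendrocytes, spread from 109 to 745 CPM in WT and from 260 to 982 CPM in BERKO. In all 8 of these the log2 difference lay between -0.27 and 0.27, with edgeR adjusted p of 0.446 or more. Hsp90aa1, an inducible form of the chaperone Hsp90, had 438 ± 135 and 665 ± 83.5 CPM (0.60 ± 0.17, adjusted p = 0.193), and Nfix, a transcription factor, 451 ± 124 and 578 ± 144 CPM (0.36 ± 0.18). Both are far features at the second CDS position of genes that have promoter reads.

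**Figure D4:**
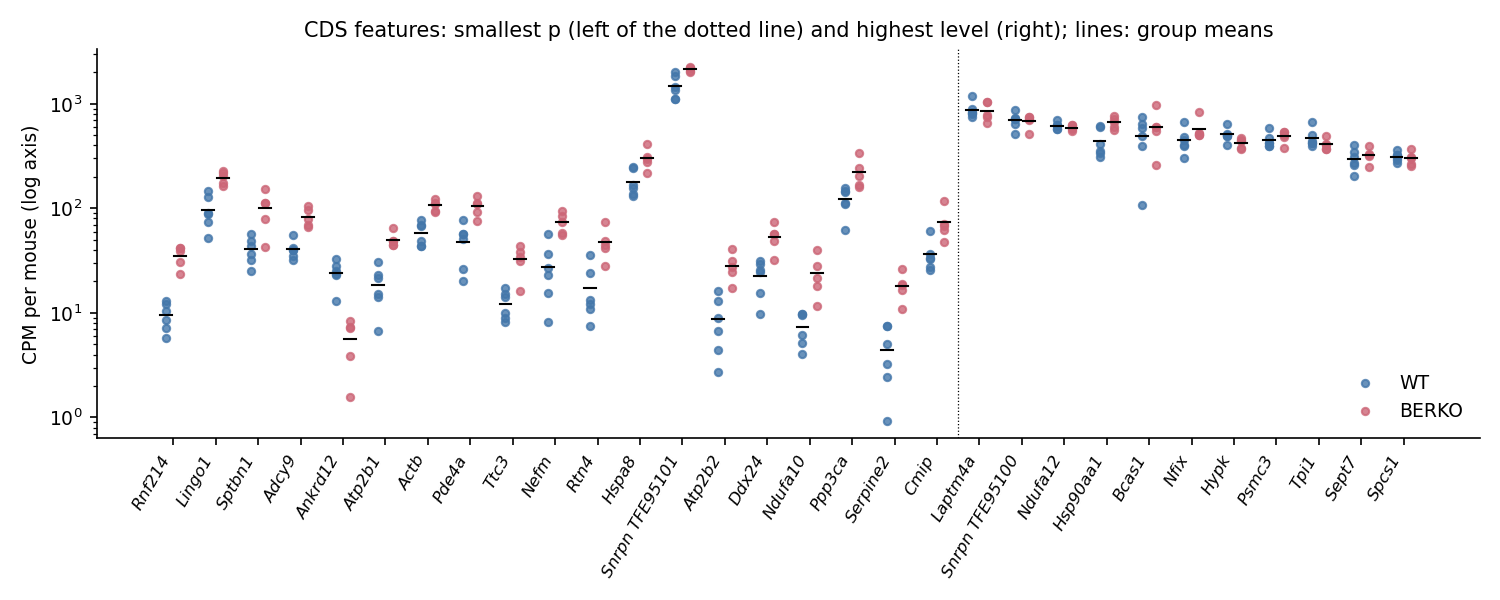
CPM per mouse (log axis) of 19 of the 20 CDS features with the smallest p, left of the dotted line, and of the other features among the 12 with the highest level, right of it, with WT in blue, BERKO in red and group means as lines. On the left 18 of 19 group means are higher in BERKO, with Ankrd12 lower, and on the right the groups overlap in every feature.

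Within genes, the CDS features mostly leaned the way of the whole class, in which 75.2% of tested features were positive. With TMM on the CDS features alone that share was 48.6%. Of all 1576 genes with a tested CDS feature, 1175 had a positive median. Whether features of 1 gene lean together more than the class does was not tested. Of 114 genes with 5 or more tested CDS features, 106 had a positive median, 35 had only positive values and 0 had only negative ones. Ttc3, a ubiquitin ligase with 30 CDS features, was positive in 11 of 11 tested, from 0.04 to 1.40, while its promoter sum differed by -0.16 ± 0.13 (SE). Atp2b2 was positive in 10 of 10, from 0.20 to 1.72, with a promoter sum at -0.18 ± 0.19. In Sptbn1, positive in 8 of 13, the values spread from -0.48 to 1.31, and in App, the amyloid precursor protein, positive in 7 of 11, from -0.52 to 1.34. These genes were picked after their values were seen, and features of 1 gene share its transcripts and are not independent.

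Set beside the promoter reads of the same gene, CDS reads were the minor part in most genes. Over 3737 genes with 50 or more CDS plus promoter reads per mouse and any promoter read, the CDS share had a median of 6.37%, with the quartiles at 2.35% and 16.0%. It exceeded 50% in 323 genes and 90% in 111. A further 110 genes had CDS reads and no promoter read at all. The richest of these were Ndufa12, Bcas1, Psmc3, Tpi1 and Spcs1, all at 100% CDS reads. Among genes with some promoter reads, the highest shares were those of Atp2a2, the calcium pump of the endoplasmic reticulum, at 99.97%, and of Laptm4a, Hypk, Spsb3 and Anln, at 99.85% to 99.94%. These 5 were picked after their values were seen.

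Between the genotypes, CDS sums leaned higher in BERKO and promoter sums lower. Of 2192 genes tested in both, 1110 had a positive CDS and a negative promoter difference, 550 were positive in both, 393 negative in both, and 139 had a negative CDS and a positive promoter difference. Across these genes the differences had a Pearson r of 0.19 and a Spearman rho of 0.14, where both sums come from the same libraries. The median over 6832 promoter sums was -0.17 and over 3172 CDS sums 0.31. Of these promoter sums 31.8% were positive and of the CDS sums 73.0%, so the count of 1110 genes goes with the shift of each class. It shows nothing particular to single genes. Of CDS sums 0 passed (0.0% called; smallest edgeR adjusted p = 0.077; 361, or 11.4%, at an unadjusted p under 0.05), while 3 promoter sums (0.0439%) passed, all lower: Rpl22l1, Uqcrb and Maged1. Without WT replicate 4 the CDS sums had 41 calls, all higher.

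**Figure D5:**
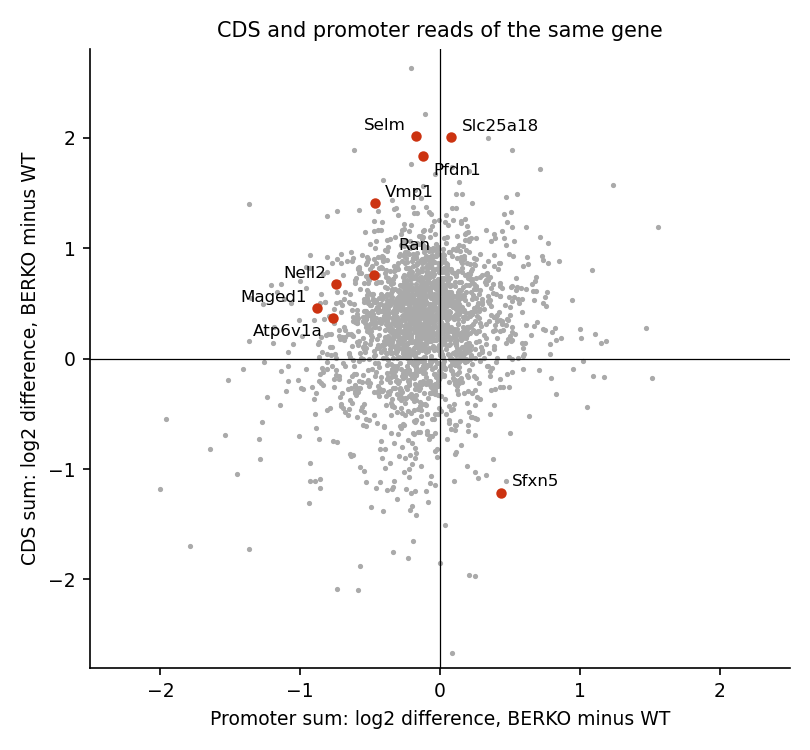
Each point is 1 of 2192 genes (1 outside the axes), with the log2 difference, BERKO minus WT, of its promoter sum (x axis) and its CDS sum (y axis), and 9 of the 10 genes with the smallest p for CDS against promoter reads named in red. The upper left field holds 1110 genes and the lower right 139, among them Sfxn5.

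A direct test asked whether the genotype difference of a gene's CDS reads departs from that of its promoter reads. Over 2089 genes the median of this departure was 0.47 on the log2 scale and 1650 genes were positive. With edgeR's quasi-likelihood test and Benjamini-Hochberg adjustment 0 genes passed (0.0% called, smallest adjusted p = 0.184), and 304 (14.6%) had an unadjusted p under 0.05, 294 of them positive and 10 negative. Of the 10 genes with the smallest p, 9 are described next, and none of the 10 passed. They were picked for this same difference, so a lack of overlap in their CDS shares is no further support. How many of all tested genes lack such overlap was not counted.

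Maged1, a melanoma antigen family protein that takes part in neurotrophin receptor signalling, had CDS shares of 22.2%, 25.8% and 29.2% in WT (lowest, median, highest) and of 40.5%, 47.1%, 42.6%, 53.9% and 51.5% in BERKO replicates 2 to 6. The groups did not overlap, and the departure was 1.34 ± 0.28 (SE). Here the promoter sum fell, from 372 ± 71.0 to 203 ± 27.0 CPM (SD, n = 6 and 5; log2 difference -0.88 ± 0.15 SE, edgeR adjusted p = 0.00863), and the CDS sum went from 130 ± 24.4 to 180 ± 17.5 CPM (0.46 ± 0.19, adjusted p = 0.329).

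Slc25a18, a mitochondrial glutamate carrier, had CDS shares of 0.882% to 1.94% in WT and of 5.56%, 9.35%, 3.07%, 3.42% and 8.41% in BERKO replicates 2 to 6, with no overlap (1.91 ± 0.42 SE). Its counts were low, with a mean of 13.3 CDS reads per mouse. Ran, the small GTPase of nuclear transport, had 1.80% to 3.43% in WT and 4.13% to 6.77% in BERKO (1.26 ± 0.28). Pfdn1, a prefoldin subunit, had 0.0% to 3.51% and 3.77% to 12.7% (1.99 ± 0.52). Atp6v1a, a subunit of the proton pump of vesicles, had 15.0% to 22.4% and 24.2% to 35.8%. The shares of these 4 genes, like those of Maged1, did not overlap between the genotypes, which their choice by p favours.

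In Nell2, a secreted protein of neurons, CDS reads made up 58.7% to 83.4% of its reads in WT and 83.6% to 90.7% in BERKO, with no overlap. Selm, a selenoprotein, had 1.38% to 3.57% and 3.37% to 23.2% (2.04 ± 0.47), and Vmp1, an autophagy protein, 2.59% to 15.6% and 11.5% to 27.3% (2.08 ± 0.56), both with overlap. Sfxn5, a mitochondrial carrier, went the other way, with 6.59% to 21.7% in WT and 1.79% to 7.59% in BERKO (-1.68 ± 0.45). Stretches of Ran and, of the features above, Hspa8, Hsp90aa1, Hypk, Ndufa12, Snrpn, Tpi1 and Atp2b1 match other annotated transcripts at 95% identity or more, so their counts are uncertain to that extent. Vmp1 matches Mir21a, whose transcript overlaps it, and Cmip matches Ranbp9, each over 92 bases or fewer.

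Gene groups were described by the sums of their members, from 21 lists, and no CDS sum of any member passed the test. The counts cover only members whose CDS sum passed the filter on low counts, which a member high in 1 genotype alone can pass. CDS and promoter medians of a list are over the sums tested of each kind, which are not always of the same genes. Over all 3172 CDS sums 2316 (73.0%) were positive, with a median of 0.31, and several of the lists below lie near that share. Of ion channel genes 12 of 13 tested CDS sums were positive, with a median of 0.76, of 22 genes with a CDS feature. The 7 promoter sums of the list had a median of -0.21. Only 5 genes were tested for CDS against promoter reads, and this difference was positive in 5 of 5, with a median of 1.07. CDS reads made up 64.7% of the reads of this list. Kcnma1, the large-conductance potassium channel, named for the smallest p of the list, had 61.7 ± 13.5 and 111 ± 12.1 CPM of CDS reads (SD, n = 6 and 5; 0.85 ± 0.22 SE), and Scn2a1, a neuronal sodium channel with no promoter read, 70.8 ± 19.7 and 101 ± 35.8 CPM (0.51 ± 0.26). Of pump genes 10 of 10 were positive (median 0.47, promoter median -0.16), with Atp1b1, the beta subunit of the sodium pump, at 317 ± 74.1 and 439 ± 61.0 CPM. In the list of genes with 1 coding exon, 10 of 10 tested were positive (median 0.62, promoter 0.05), of 23 with a CDS feature. Those not tested went both ways. Amigo2 had 4.86 CPM in WT and 0.31 in BERKO, and Arf6 5.32 and 8.55 CPM.

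Cytoskeletal, synaptic and housekeeping lists had medians from 0.34 to 0.43. Axon and cytoskeleton genes had 19 of 21 positive (median 0.37, promoter 0.08), led in level by Map1a, a microtubule-associated protein, at 368 ± 171 and 582 ± 127 CPM (SD, n = 6 and 5). Map1b, its relative, with the smallest p of the list, had 332 ± 102 and 528 ± 62.4 CPM (0.67 ± 0.19 SE). Synaptic vesicle genes had 19 of 22 positive (0.42, promoter -0.22), with Rab3a, a GTPase of vesicle release, at 198 ± 39.8 and 297 ± 31.6 CPM. Glutamate synapse genes had 16 of 19 (0.43, promoter -0.28), with Ppp3ca at 319 ± 80.8 and 559 ± 129 CPM. Chaperones had 14 of 16 (0.36, promoter -0.15) and glycolysis genes 12 of 13 (0.37, promoter -0.13), with Hspa8 at 739 ± 126 and 1070 ± 181 CPM and Tpi1 at 502 ± 104 and 452 ± 51.0 CPM. Oxidative phosphorylation genes had 11 of 14 (0.34, promoter -0.08), with Atp5b, an ATP synthase subunit, at 262 ± 52.3 and 353 ± 49.0 CPM. Translation factors had 12 of 15 (0.34, promoter 0.09), with Eef1a1, an elongation factor, at 137 ± 35.0 and 146 ± 31.2 CPM.

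GABA synapse and glial genes had CDS medians from 8.9e-05 to 0.30. Of GABA synapse genes 7 of 13 CDS sums were positive, with a median of 8.9e-05 against -0.14 for promoters, and Gabbr1, a GABA-B receptor subunit, had 66.2 ± 7.59 and 74.4 ± 5.64 CPM (SD, n = 6 and 5). Astrocyte genes had 16 of 20 positive (median 0.30) and a promoter median of 0.19, with Sparcl1, a secreted matrix protein, at 281 ± 50.6 and 403 ± 42.5 CPM. Myelin genes had 11 of 12 positive (0.20, promoter 0.20), of 21 genes with a CDS feature. The myelin genes whose CDS sum was not tested were more often lower in BERKO than higher. Ndrg1 had 8.53 CPM in WT and 2.59 in BERKO, and Fa2h 2.76 and 4.46 CPM. Of 11 myelin genes tested for CDS against promoter reads 5 were positive, with a median of -0.009. Whether these lists differ from the others was not tested.

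The small lists gave few tested CDS sums. Microglial genes had 3 tested and 2 positive (median 0.15, promoter 0.21), with Ctsd, a lysosomal protease, at 34.7 ± 12.1 and 55.8 ± 15.3 CPM. Endothelial genes had 2 tested and 1 positive, with Bsg at 82.6 ± 21.0 and 103 ± 28.9 CPM, and pericyte genes 1, Vtn, at 13.9 ± 3.51 and 22.9 ± 11.7 CPM (SD, n = 6 and 5). Meningeal genes had 6 of 6 positive (0.56, promoter 0.58), with Ptgds, a prostaglandin synthase, at 204 ± 75.7 and 265 ± 69.3 CPM. Striatal genes had 2 of 3 positive, among them Penk, the enkephalin precursor, at 15.7 ± 9.92 and 51.2 ± 20.1 CPM (1.71 ± 0.45 SE, edgeR adjusted p = 0.131). Immediate early genes had 7 of 7 positive (0.40, promoter 0.19), with Egr1, an activity-induced transcription factor, at 57.8 ± 28.6 and 121 ± 49.4 CPM. No CDS sum of a choroid plexus or blood gene passed the filter: Ttr had 2.46 ± 3.40 and 4.01 ± 4.90 CPM, and Alas2 had no CDS read in WT and a mean of 1.73 CPM in BERKO.

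The genotype difference of the CDS share was examined on each side of the brain. On the right, WT biopsies had 8.77% ± 1.22 and BERKO biopsies 11.4% ± 1.35 (SD, n = 6 and 5; exact permutation p = 0.0087). On the left they had 8.78% ± 1.68 and 10.4% ± 0.779 (SD, n = 6 and 5; exact permutation p = 0.0844), and the left biopsy of WT replicate 4 was the highest WT value at 11.6%. The difference between the sides in this effect had an exact permutation p of 0.398 (n = 6 and 5). Between the sides of the same mouse, right biopsies had 9.97% ± 1.83 and left biopsies 9.52% ± 1.54 (SD, n = 11), with the right higher in 6 of 11 mice (permutation p = 0.448, sign changes within mice).

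Single features were tested per side as well. The shares of all features called below are at an adjusted p under 0.05. No share of all features at an unadjusted p was counted for these comparisons, so nothing is read from the unadjusted counts. On the right 0 of 1634 CDS features passed edgeR's quasi-likelihood test (225 at an unadjusted p under 0.05, 0.0733% of all features called), with a median of 0.51. On the left 0 of 1021 passed (79 unadjusted, 0.0% of all features called), with a median of 0.30. Right against left, 0 of 2223 CDS features passed in edgeR (67 unadjusted, 0.0% of all features called, 2 by DESeq2), with the smallest adjusted p at 0.545. The genotype by side term had 0 calls as well in edgeR (58 unadjusted, 0.0% of all features called, 0 by DESeq2).

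CPM of single biopsies, here and below, are counts scaled to all endogenous reads of the biopsy, without TMM factors. They lie on another scale than the CPM per mouse and cannot be set beside them. The smallest p between sides belonged to the second Snrpn feature (0.66 ± 0.16 SE, right minus left). In WT it had 696 ± 160 CPM on the right and 498 ± 193 on the left (SD, n = 6). In BERKO it had 747 ± 81.1 and 459 ± 165 CPM (SD, n = 5). Ntsr2, a neurotensin receptor of astrocytes, had 111 ± 23.1 and 162 ± 44.0 CPM in WT and 159 ± 47.6 and 232 ± 81.2 in BERKO (-0.52 ± 0.15 SE). Kcnv1, a potassium channel subunit, differed by 0.92 ± 0.28, Myh10, a nonmuscle myosin, by 2.72 ± 0.86 and Rps19, a ribosomal protein, by 2.56 ± 0.82, the last 2 at means of 20.9 reads per mouse or fewer.

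For the genotype by side term, Got1, a transaminase of glutamate and aspartate, had 10.2 ± 10.4 CPM on the right and 34.8 ± 16.0 on the left in WT, against 39.4 ± 15.1 and 29.9 ± 21.1 in BERKO (SD, n = 6 and 5; 2.60 ± 0.71 SE, edgeR adjusted p = 0.999). A Cmip feature at position 119977080 of chromosome 8 (plus strand) had 13.5 ± 9.34 and 28.0 ± 14.5 CPM in WT and 53.4 ± 20.2 and 25.2 ± 16.6 in BERKO (2.40 ± 0.67), and Aplp1, a relative of the amyloid precursor, differed by 2.26 ± 0.71.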

How the data were processed

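STRT libraries of 22 M1 biopsies were analysed from the deposited table of read counts, whole numbers per feature that the authors deposited without scaling. A second deposited table, of reads relative to spike-in reads, was not used here. Build mm9, Bowtie and TopHat2 2.0.12 are named in the submitters' processing notes, and the sources used here do not give how features were drawn and counted. The deposited annotation gives the class, symbol and position of each feature. Each of the 64 columns was tied to its biopsy through its name, with the last digit read as the mouse. Lanes were summed, since lanes of a biopsy differed by a chi-square per CDS feature of 0.570 to 0.759, within sampling noise, and biopsies of a group by at least 3.88. The protocol in the labels names barcodes per well and PCR, so counts are taken as reads after PCR.

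Both sides were summed per mouse, the replicate. Spike-in features (38 at the start and 19 inside) and 37 features on a ribosomal repeat (0.358% of reads) were left out of the tests. edgeR 4.0.16 (R 4.3.3, limma 3.58.1) was run with robust quasi-likelihood, TMM, filterByExpr and Benjamini-Hochberg adjustment at 0.05 over all features or genes tested; a standard error (SE) was computed from the log2 difference and its F statistic as their ratio after taking the root of F. The common biological coefficient of variation was 44.4%. CDS against promoter reads was tested as a compartment by genotype term with the mouse as a block, and sides with the mouse as a block, since the labels give both biopsies of a mouse (deviations of the sides correlated by -0.0764 to 0.237). Shares were compared by two-sided exact permutation over all 462 splits, and sides by sign changes within mice. On simulated counts with changes of 4-fold, 84.8% were recovered for the genotype, 98.4% for the side, 18.9% for genotype by side and 58.5% for CDS against promoter. The changes were set only in features or genes with means of 20 or more reads per mouse. Every feature had the coefficient of 44.4% from the fit of mice, also in biopsies, and no mouse effect was drawn. The rates thus do not hold for fainter features, noisier biopsies or smaller changes. Near copies were sought with BLAST 2.17.0 in GENCODE M21 transcripts, over 80 bases at 95% identity; Selm had no entry there.

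Features were named by a rule: CDS features past the threshold and then by p up to 20, the 12 highest by CPM, 10 genes by p for CDS against promoter reads, the smallest p for side and genotype by side, the highest CDS sum of each of the 21 lists and the 5 highest CDS shares. Among the features and genes so chosen, 2 are not reported here. The members, lists and rules were chosen with earlier results of these data known. Alternatives were DESeq2 1.42.0, limma-voom, other scalings and filters, single sides and left-out mice and libraries.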

Additional observations from a re-analysis of the deposited data

Results flagged for a closer look

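Of 112 groups of 4 to 10 values that were checked, 10 held a sample far from the others, which chance does in about 1 of 20 groups. BERKO replicate 5, whose left biopsy has 1 lane, had 1795 spike-in reads where the other BERKO mice had 2247 to 2420. WT replicate 5 had 1.28% of its spike-in reads inside the spike-in sequences, against 0.803% to 0.903% in the other WT mice. BERKO replicate 5 also stood apart in the first Atp2b1 CDS feature, at 65.2 CPM against 44.2 to 49.2, and in the CDS share of Nell2, at 83.6% against 89.96% to 90.65%. BERKO replicate 4 was low in the second Snrpn feature, at 514 CPM against 703 to 748, and high in Nfix, at 836 CPM against 498 to 531. WT replicate 2 was high in a Cmip feature, at 61.1 CPM against 25.9 to 36.7, and in the CDS share of Atp6v1a, at 22.4% against 15.0% to 17.2%. WT replicate 6 had 1199 CPM in the Laptm4a feature, against 744 to 889 in the other WT mice. WT replicate 4 had a CDS share of 15.6% in Vmp1, against 2.59% to 4.97%.

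A Cmip CDS feature at position 119977080 of chromosome 8 went in opposite directions in the genotypes. Right minus left was positive in every BERKO mouse and negative in every WT mouse. The feature was named for a small p of this same contrast, so such a separation is favoured by its choice and is no further support. How many of all tested features separate in this way was not counted. The genotype means differed by 42.7 CPM, on the scale of single biopsies without TMM factors. The edgeR test of the genotype by side term gave an adjusted p of 0.999 for it.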

How the results depend on the processing

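The CDS share of endogenous reads differed by 1.89 to 2.55 points, and that of CDS plus promoter reads by 2.24 to 3.05, when each mouse was left out in turn. On the left side alone they differed by 1.63 and 1.94 points (exact permutation p = 0.0844 and 0.110), and with a replicate block over the 5 shared numbers by 2.16 and 2.60 (exact permutation p = 0.0625, the smallest 5 pairs can give). The labels do not say whether the numbers pair WT with BERKO mice. Same-numbered WT and BERKO mice correlated by -0.0275 to 0.0553, and 1 of 5 BERKO mice correlated best with its number. Even the sides of the same mouse correlated only by -0.0764 to 0.237, so these values cannot decide on a pairing. The count of CDS features past the threshold, 1 in edgeR with TMM, was 16 with spike-in scaling. It was 20 with TMM on CDS features alone (3 higher, 17 lower), 24 without a filter and 3 with limma-voom. With DESeq2 it was 32, where only 1090 CDS features were given an adjusted p. It was 2 after thinning every mouse to 1010647 reads, 3 without the 3 libraries that stood apart, and 0 on either side alone. Leaving out each mouse gave 0 to 12 calls: 12 without WT replicate 4, 3 without WT replicate 1, and 0 without WT replicates 3 and 6 or BERKO replicates 3, 4 and 5. The replicate block gave 1 call, which was not Rnf214 (adjusted p = 0.112 there), and a fit of CDS features alone also gave 1, lower, with Rnf214 at 0.478. The 1 call without BERKO replicate 6 was lower and not Rnf214 either. CDS against promoter reads gave 4 genes with a replicate block in place of the mouse block. Promoter sums gave 8 calls with the replicate block and 2 to 5 when each mouse was left out, with 5 without WT replicate 1 and without WT replicate 4. CDS sums gave 0 to 41, the last without WT replicate 4, and the right side alone 0 to 1. DESeq2 called 2 features between sides. The right minus left share, 0.443 points, was 0.0227 without both mice whose libraries stood apart and 0.117 to 0.665 without each mouse. The share inside spike-ins turned to 0.126 points higher in BERKO without BERKO replicate 2 and ranged from -0.239 to 0.126. The cause of these moves was not tested. The named features and genes kept their direction in all 638 values of the alternatives run for them. Of these values 565 were on the same side of the threshold, 63 newly past it and 10 no longer past it. These features and genes were picked by p in these same data, and most alternatives refit nearly the same counts. A kept direction is thus no further support for them. The alternatives for promoter sums, CDS sums, spike-ins, single sides and the share between sides were chosen after the data were seen.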

Other observations

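Genes with longer coding sequences had a larger CDS share. In 3 groups of equal size by coding length, taken from GENCODE M21 for 3731 of 3737 genes, the median CDS share was 2.55% for lengths of 138 to 822 bases, 6.86% for 822 to 1527 bases and 14.9% for 1530 to 26397 bases. Across genes the Spearman rho of length and share was 0.54, while that of length and the genotype difference of CDS against promoter reads was 0.09. The median of that difference was 0.39, 0.45 and 0.54 on the log2 scale from the shortest to the longest group. The 112 genes with 1 coding exon had a median share of 6.28% and the 3619 with more exons 6.38%.

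Ranked by order along the gene, in genes with 3 or more CDS features, the features of the leading part (of 3 equal parts) held 35.0% ± 1.73 of their reads in WT and 33.2% ± 0.978 in BERKO (SD, n = 6 and 5; exact permutation p = 0.0433, adjusted 0.0625). Those of the trailing part held 35.6% ± 1.68 and 36.7% ± 0.539 (exact permutation p = 0.21, n = 6 and 5).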
